A study of Mus musculus with 7 samples.

Results

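Peaks of 5-methylcytosine (5mC) and 5-hydroxymethylcytosine (5hmC) at noncoding RNA genes were taken from 4 peak lists of the mouse ATDC5 line. A peak was a member when the transcript accession that the authors assigned to it began with NR_, the RefSeq prefix of noncoding transcripts. There were 299 such peaks of 8949, or 3.34%, and they carried 207 accessions. The comparison set was the 5130 peaks with an NM_ accession, the prefix of protein-coding transcripts. The remaining peaks carried no accession and named no gene.

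ATDC5 is a chondroprogenitor line that forms cartilage-like cells in medium with insulin, transferrin and selenite. The study profiled both marks while the line differentiated, and asked where 5mC and 5hmC lay at each stage. The lists were day 0 5mC (undifferentiated cells, 1 sample, 326 peaks), day 10 5mC (1 sample, 2401 peaks), day 5 5hmC (2 merged samples, 2058 peaks) and day 10 5hmC (2 merged samples, 4164 peaks). All groups were of this line, with no other genotype or agent named, and the number of cultures behind each is not labelled. Days are those of the labels, and they differ from the days that the study names for its maps. The lists hold no expression values, so the cell type could not be checked against markers. With 1 list for each mark and day there were no replicate lists, and the read depth is unknown. Each interval of a share below is a 95% Wilson interval, and that of a difference combines the Wilson limits of both shares. All of them cover counting error over peaks only.

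Noncoding RNA genes make transcripts that act without being translated. Long noncoding RNAs can act on neighbouring genes in cis, as in imprinted clusters, while microRNAs are cut from hairpins and pair with target messages through their seed. 5mC is written on cytosines of CpG pairs by DNA methyltransferases, and TET enzymes oxidise it to 5hmC, which is common in the bodies and distal elements of active genes. In the growth plate, microRNAs and long noncoding RNAs are among the regulators of chondrocyte genes such as those of the SOX family.

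The sequences that the results below turn on are given first, as the forward strand of GRCm38 from RefSeq. The following 6 day 10 5hmC peaks lay inside a day 5 5hmC peak of the same gene and are shown, with CpG pairs in capitals, as 6 of the 30 overlapping pairs of peaks at 24 accessions. They were picked after their values were seen, and all have a higher CpG density than their day 5 peak, which held for 17 of the 30.
Pvt1 intron, chr15:62067278-62067528: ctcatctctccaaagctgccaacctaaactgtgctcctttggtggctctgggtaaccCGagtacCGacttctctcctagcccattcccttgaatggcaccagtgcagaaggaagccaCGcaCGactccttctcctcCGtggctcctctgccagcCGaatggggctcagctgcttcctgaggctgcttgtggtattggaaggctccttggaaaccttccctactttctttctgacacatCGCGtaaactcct
2610307P16Rik intron, chr13:28787115-28787248: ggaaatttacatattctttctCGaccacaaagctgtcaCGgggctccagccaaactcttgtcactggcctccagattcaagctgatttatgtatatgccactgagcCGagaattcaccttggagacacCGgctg
D830013O20Rik intron, chr12:73367553-73367683: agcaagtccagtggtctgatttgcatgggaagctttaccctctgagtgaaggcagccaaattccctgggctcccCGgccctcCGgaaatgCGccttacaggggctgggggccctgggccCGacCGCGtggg
upstream of Gm4262, chr16:11006319-11006434: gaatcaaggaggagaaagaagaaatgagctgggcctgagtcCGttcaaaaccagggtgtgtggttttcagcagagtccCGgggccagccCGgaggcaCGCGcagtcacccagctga
upstream of Gm5122, chr9:61015610-61015737: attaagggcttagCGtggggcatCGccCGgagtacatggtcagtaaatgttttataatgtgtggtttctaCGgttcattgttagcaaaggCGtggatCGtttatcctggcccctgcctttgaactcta
9430076C15Rik, inside Creb5, chr6:53384900-53385033: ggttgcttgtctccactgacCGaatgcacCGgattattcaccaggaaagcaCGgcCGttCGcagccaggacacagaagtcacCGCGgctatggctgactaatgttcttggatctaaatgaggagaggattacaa

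Of the members kept on both days, 3 day 10 peaks also held the AP-1 string TGACTCA or its reverse complement, which is in capitals here for all but the 830 bp peak of Rn45s (not shown).
Gm6936 intron, chr16:49982404-49982516: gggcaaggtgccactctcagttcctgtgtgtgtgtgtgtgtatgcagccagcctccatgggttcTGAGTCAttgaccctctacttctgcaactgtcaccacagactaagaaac
5730422E09Rik intron, chr5:149144162-149144308: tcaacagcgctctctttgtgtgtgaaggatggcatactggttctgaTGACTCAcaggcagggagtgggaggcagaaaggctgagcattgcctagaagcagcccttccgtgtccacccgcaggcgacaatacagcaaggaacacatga

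The next set holds peaks of named genes, with CpG pairs in capitals. The Mir34a pair is shown because it lies upstream of the microRNA's own hairpin, Tug1 as the narrowest member and free of CpG, Airn and Peg13 as imprinted genes, 9530052E02Rik for its CpG density beside Irs2, and Rn45s and Gm5577 as genes where both marks met. For Peg13 the central 300 bases of a wider 5mC peak are given, and for Gm5577 the bases that its 5hmC and 5mC peaks shared.
upstream of Mir34a, chr4:150061832-150061983: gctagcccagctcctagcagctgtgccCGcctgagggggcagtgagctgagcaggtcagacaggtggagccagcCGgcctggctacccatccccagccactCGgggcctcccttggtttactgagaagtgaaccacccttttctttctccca
upstream of Mir34a, chr4:150062039-150062248: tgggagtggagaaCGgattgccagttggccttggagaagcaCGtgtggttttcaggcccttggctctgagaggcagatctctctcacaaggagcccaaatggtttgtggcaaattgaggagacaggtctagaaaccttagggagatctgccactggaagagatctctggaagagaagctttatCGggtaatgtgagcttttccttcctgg
Tug1 exon, chr11:3647485-3647557: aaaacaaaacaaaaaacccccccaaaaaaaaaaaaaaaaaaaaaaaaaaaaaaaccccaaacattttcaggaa
Airn intron, chr17:12794412-12794567: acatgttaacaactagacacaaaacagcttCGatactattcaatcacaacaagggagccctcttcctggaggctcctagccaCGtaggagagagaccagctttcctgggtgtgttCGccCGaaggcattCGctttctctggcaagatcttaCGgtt
9530052E02Rik intron, chr8:11009911-11010049: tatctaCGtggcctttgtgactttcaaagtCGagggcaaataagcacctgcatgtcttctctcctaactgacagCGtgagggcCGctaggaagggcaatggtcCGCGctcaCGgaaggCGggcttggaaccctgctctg
Rn45s, chr17:39847017-39847095: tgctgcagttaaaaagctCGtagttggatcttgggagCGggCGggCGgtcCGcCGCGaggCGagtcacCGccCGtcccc
Gm5577 exon, chr6:87983119-87983245: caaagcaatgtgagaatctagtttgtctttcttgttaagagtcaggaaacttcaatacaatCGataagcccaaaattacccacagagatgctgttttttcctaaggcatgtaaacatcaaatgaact
Peg13, chr15:72809596-72809895: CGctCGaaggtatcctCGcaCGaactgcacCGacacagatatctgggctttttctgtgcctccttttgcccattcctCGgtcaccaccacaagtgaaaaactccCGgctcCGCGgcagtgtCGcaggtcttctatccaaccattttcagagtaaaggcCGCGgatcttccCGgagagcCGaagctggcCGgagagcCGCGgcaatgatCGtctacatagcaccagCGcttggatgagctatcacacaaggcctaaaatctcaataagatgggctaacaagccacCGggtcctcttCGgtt

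MicroRNA genes gave 43 of the 299 members, and 12 of the 19 microRNA genes had a mature sequence in the RefSeq table. The 17 mature sequences had 17 different seeds, so none of these shared one. The seeds of the other microRNA genes could not be compared. Those of the genes with a peak at their own locus, and of Mir1195, the microRNA label with the most peaks, are given 5′ to 3′ with the seed (bases 2 to 8) in capitals.
miR-34a-5p: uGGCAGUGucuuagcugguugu
miR-34a-3p: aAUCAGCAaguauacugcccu
miR-331-5p: cUAGGUAUggucccagggaucc
miR-331-3p: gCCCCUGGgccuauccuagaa
miR-487b-5p: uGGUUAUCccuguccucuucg
miR-101c: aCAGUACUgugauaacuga
miR-1195: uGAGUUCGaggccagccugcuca

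Noncoding gene peaks made up a larger share of the day 0 5mC list than of any other list among the peaks that carried an accession. They were 15 of 124 at day 0 (12.1%, interval 7.47% to 19%) and 67 of 1665 in day 10 5mC (4.02%, 3.18% to 5.08%). In the 5hmC lists they were 68 of 1231 at day 5 (5.52%, 4.38% to 6.94%) and 149 of 2409 at day 10 (6.19%, 5.29% to 7.22%). The day 10 5mC share minus the day 0 share was -8.07 percentage points (interval -15.0 to -3.33, two-sided Fisher's exact test, adjusted p = 0.000977 over 3 pairs). The day 10 5hmC share was above the day 10 5mC share by 2.16 points (0.779 to 3.49, adjusted p = 0.00411 by the same Fisher's exact test). Between the 5hmC days the difference was 0.661 points (-1.02 to 2.20, adjusted p = 0.460, Fisher's exact test), which did not pass 0.05.

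These tests compare lists and not cultures, and the lists of the marks were cut at different enrichments (3-fold for 5mC and 10-fold for 5hmC), whose part in the difference between marks cannot be told apart from that of the mark. Taken over every peak, with or without an accession, the shares were 4.60%, 2.79%, 3.30% and 3.58% in the order above, and neither difference passed (adjusted p = 0.147 for both by Fisher's exact test). With each gene counted once per list, the difference between the marks at day 10 fell to 1.72 points and did not pass either (adjusted p = 0.0659, Fisher's exact test). The day 0 list rests on few peaks and was rich in repeats, as described below.

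**Figure D1:**
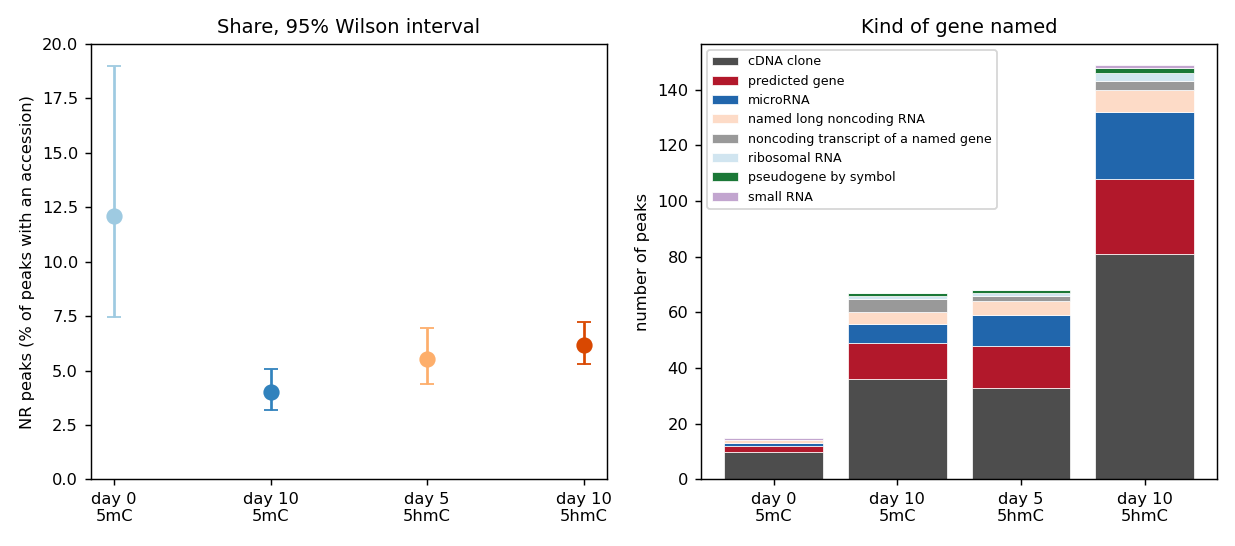
The left panel plots, for each list, noncoding gene (NR) peaks as a percentage of the peaks with an accession, with 95% Wilson intervals; day 0 5mC stands highest at 12.1% and day 10 5mC lowest at 4.02%. The right panel stacks the number of NR peaks by the kind of gene that the symbol names, and cDNA clones are the largest kind in every list (10, 36, 33 and 81 peaks).

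Most of the members carried the symbol of a cDNA clone or of a predicted gene. By symbol, 160 peaks were at cDNA clone genes (119 genes), 57 at predicted genes (42 genes), 43 at microRNAs (19 genes), 18 at named long noncoding RNAs (12 genes) and 10 at noncoding transcripts of named genes (9 genes). Rn45s, the 45S precursor of ribosomal RNA, had 5 peaks, pseudogenes named as such had 4, and small RNAs had 2. The microRNA label made up 6.67% of the members at day 0, 10.4% in day 10 5mC, and 16.2% and 16.1% in day 5 and day 10 5hmC. Of the 43 peaks with such a label, 32 lay on another chromosome than the hairpin and 8 at the microRNA's own locus, as described below. These shares are thus of labels and not of peaks at microRNA genes. By RefSeq gene type, 221 peaks were at long noncoding RNA genes, 41 at microRNA genes, 11 at pseudogenes, 11 at noncoding transcripts of protein-coding genes and 1 at a small nuclear RNA gene, and 14 had no match.

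Of the 207 accessions, 151 had a single peak, 161 were in 1 list, 43 in 2 lists, 3 in 3 lists and 0 in all 4. The same was not counted over all accessions, so these counts do not set the members apart. For each pair of lists, sharing is given below beside that of all accessions. The genes in 3 lists were 9430076C15Rik, Mir1195 and Rn45s, all of them in day 10 5mC and both 5hmC lists. Genes with at least 3 peaks in a list were 2610307P16Rik, Pvt1, Mir1195, Gm12216, 9430076C15Rik, A530065N20, Rn45s and Mir466g in day 10 5hmC, and Gm12216 and Mir3098 in day 5 5hmC.

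Not all peaks lay where RefSeq places their transcript. On GRCm38, 244 of the 299 lay within 10000 bp of the transcript of their accession, 34 lay on another chromosome, 2 lay farther off on the same chromosome, and 19 had an accession that the RefSeq release used here does not list. Among NM_ peaks, 0 of 5130 lay on another chromosome, 1 lay farther off and 99 had an accession that was not listed. The displaced labels were mostly microRNAs: 32 of the 34 peaks on another chromosome carried 1 of 13 microRNA names, and the other two were Bc1, a small neuronal RNA, and Gm12669. The 2 farther off on their chromosome were Mir1954 and 1700110I01Rik. Gm12669 and 1700110I01Rik are named after their values were seen.

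Of the 43 microRNA peaks, 8 lay at the microRNA's own locus. Mir34a, a microRNA induced by p53, had 1 peak in day 5 5hmC and 2 in day 10 5hmC, with midpoints 6842, 6547 and 6311 bp upstream of its hairpin on chromosome 4. The 2 day 10 peaks are 152 and 210 bp wide, and both overlap the day 5 peak of 1099 bp. Mir487b, of the imprinted Dlk1-Dio3 cluster on chromosome 12, had a day 10 5mC peak of 613 bp that covers its hairpin and holds 21 CpGs (3.43 per 100 bp). Mir331, a microRNA inside Vezt, had a day 10 5mC peak 1886 bp upstream of its hairpin. Mir101c had 1 day 5 and 2 day 10 5hmC peaks within 702 bp of its start near the first assembled bases of chromosome 9, where 80.6% to 100% of their bases were marked as repeat. The mature miR-101c sequence had 9 exact copies on the main chromosomes, 8 of them on chromosome 9, so its sequence is not unique to this place.

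The largest microRNA label lay nowhere near its hairpin. Mir1195 named 9 peaks (2 in day 10 5mC, 1 in day 5 5hmC and 6 in day 10 5hmC) over 431 kb of chromosome 16, from chr16:30397765 to 30828269, whereas RefSeq places its 98-base hairpin on chromosome 17. The mature miR-1195 sequence had 2 exact copies on the main chromosomes of GRCm38 and 0 on chromosome 16. These 9 peaks are regions of chromosome 16 that carry the label and are counted under it below, but they say nothing of the microRNA. RefSeq likewise places on another chromosome the hairpins of Mir297c (3 peaks, chromosome 1), Mir4660 (3, chromosome 12), Mir466g (3, chromosome 8, inside Zfhx3), Mir3098 (3, chromosome 2), Mir1191 (3, chromosome 5), Mir466n (2, chromosome 11), and Mir467c, Mir3110, Mir1198, Mir3470b, Mir3473 and Mir669m-2 (1 each). These peaks, too, carry a label away from its hairpin. Copies could be searched only for genes with a mature sequence, which Mir297c, Mir4660, Mir466g, Mir466n, Mir467c and Mir669m-2 lacked. Exact copies of the sequences searched ranged from 1, as for miR-3110-5p, to 42847 for miR-3470b. On the chromosome of the peaks, miR-3470b had 2511 copies (nearest 88.4 kb away), miR-3473a 334 (7.66 kb) and miR-1191a 1 (1499 kb). The mature sequences of Mir1198, Mir3098 and Mir3110 had 0 there. Mir1957 (2 peaks, chromosome 6) had an accession that the release does not list.

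Leaving out every peak that was not at its transcript left 13, 55, 56 and 120 members in day 0 5mC, day 10 5mC, day 5 5hmC and day 10 5hmC. The same 2 differences in share passed without them (-7.83 and 1.78 percentage points, adjusted p = 0.00104 and 0.0112 by Fisher's exact test), an alternative chosen after seeing the data.

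In day 10 5mC and both 5hmC lists, the share of members near the transcript's start was above that of NM_ peaks, at transcripts that were shorter. At day 0, the 13 members were too few to give a direction. Among those at their transcript, the midpoint lay within 5000 bp of the start for 2 of 13 at day 0 (15.4%), 24 of 55 in day 10 5mC (43.6%), 21 of 56 in day 5 5hmC (37.5%) and 46 of 120 in day 10 5hmC (38.3%). The corresponding NM_ shares were 18.4%, 16.1%, 19% and 16.9%. Median distances from the start were 19.6, 6.58, 6.42 and 6.43 kb for members and 23.6, 29.3, 28.1 and 34.5 kb for NM_ peaks. The transcripts of members spanned a median of 37.5, 14.1, 17.6 and 28.9 kb, against 74.3, 69.0, 78.0 and 99.3 kb for NM_ peaks, and the part of length in the difference was not tested. Neither was the difference itself.

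Introns were the commonest place of members in all 4 lists. In day 10 5hmC, 73 of the 120 were intronic, 24 upstream, 14 in exons and 9 downstream. In day 5 5hmC, 27 of the 56 were intronic, 16 in exons, 11 upstream and 2 downstream. In day 10 5mC, 23 of the 55 were intronic, 17 in exons, 12 upstream and 3 downstream, and the exon share of 30.9% compares with 52.9% of NM_ peaks. At day 0, 9 of 13 were intronic, 3 upstream and 1 in an exon. Upstream shares were 23.1%, 21.8%, 19.6% and 20.0% in the 4 lists, against 12.6%, 5.71%, 8.30% and 9.70% of NM_ peaks. The distance within which a peak counted as at its transcript was the same for both sets, while the transcripts of members were shorter. A shorter transcript leaves a larger part of that range upstream, and the part of length in these shares was not tested. A midpoint upstream of the start lay at most 7971 bp from it. That reach depends on the authors' assignment of peaks to transcripts and on the distance limit. The start itself was covered by 1, 6, 4 and 2 members.

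**Figure D2:**
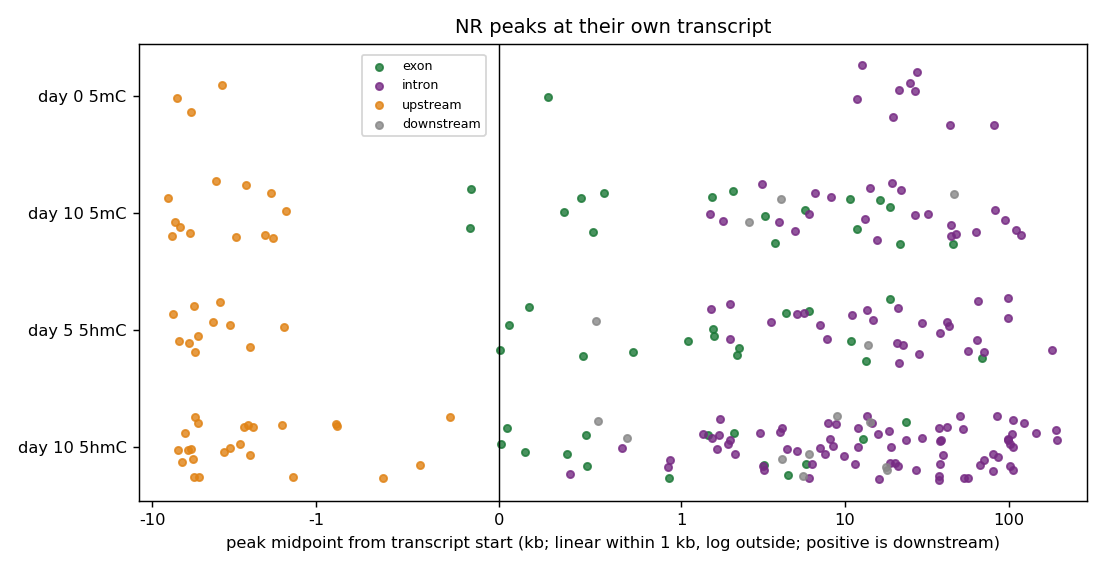
Each point is a noncoding gene peak at its own transcript, placed by the distance of its midpoint from the transcript's start in kb (linear within 1 kb of the start, logarithmic outside; positive values are downstream) and coloured by the part of the transcript it touches. Upstream points end before 8 kb in all lists, a reach that depends on the authors' assignment of peaks to transcripts and on the distance limit. Intronic points reach 183 kb in day 5 5hmC and 197 kb in day 10 5hmC.

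Widths and composition of members are given beside those of NM_ peaks of the same list. Median widths were 720 bp at day 0, 1043 bp in day 10 5mC, 883 bp in day 5 5hmC and 143 bp in day 10 5hmC, where NM_ peaks had 732, 1014, 826 and 149 bp. CpG density was 0.457, 2.54, 1.64 and 1.97 per 100 bp (NM_ peaks 0.587, 2.49, 1.65 and 1.84). The median share of bases marked as repeat was 54.9%, 13.6%, 10.4% and 0.0% (NM_ peaks 61.9%, 11.8%, 9.99% and 0.0%, all peaks 78.7%, 14.0%, 10.6% and 0.0%). The day 0 list as a whole was poor in CpG and rich in repeats, with a median of 0.523 CpG per 100 bp and 77.3% of its peaks more than 50% repeat. Of its members, 11 of 15 (73.3%) were more than 50% repeat, against 6 of 67 (8.96%; all peaks 7%), 1 of 68 (1.47%; 3.01%) and 6 of 149 (4.03%; 7.66%) in the other lists. In day 10 5hmC, 75 of 149 members had no repeat base, in a list where the median over all peaks was 0.0% too. In the same list, 7 members had no CpG (4.70%, against 6.56% of all its peaks).

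**Figure D3:**
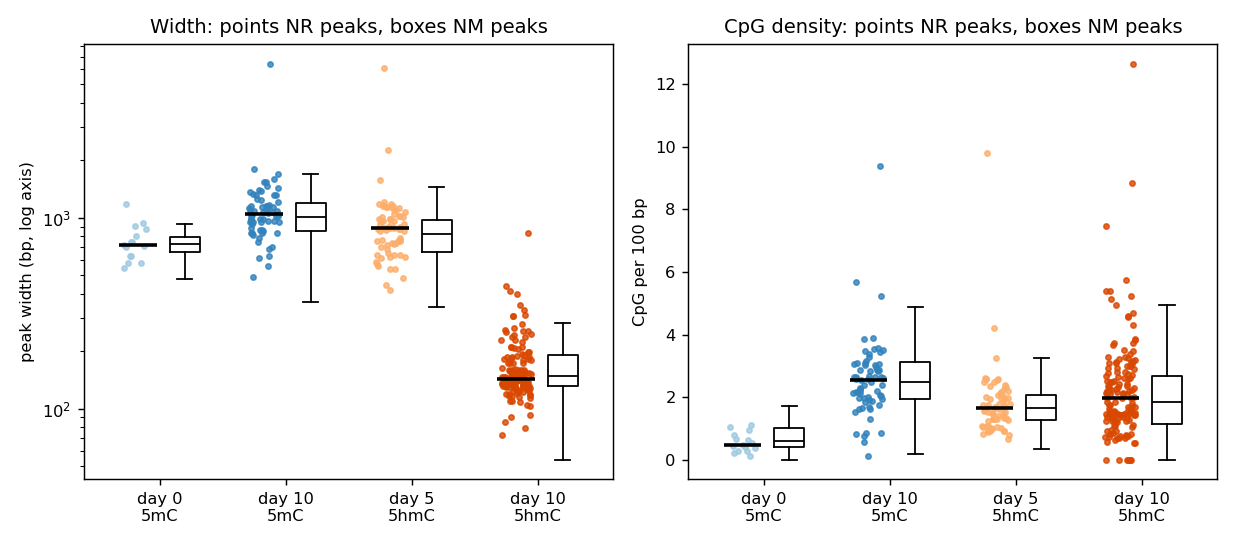
Width in bp (left, log axis) and CpG per 100 bp (right) are shown for each noncoding gene peak (points, thick line at the median) beside the NM_ peaks of the same list (boxes from the lower to the upper quartile, line at the median, whiskers to the last value within 1.5 times the box). The medians of points and boxes lie side by side in each list, and the highest points of the day 10 5mC and both 5hmC lists are Rn45s.

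The AP-1 string TGACTCA, searched on both strands and the only motif searched here, was in 30 of 68 day 5 5hmC members (44.1%, interval 32.9% to 55.9%), as in 43.1% of all peaks of that list. It was in 9 of 149 day 10 5hmC members (6.04%, 3.21% to 11.1%; all peaks 7.97%), in 9 of 67 day 10 5mC members (13.4%; all peaks 13.4%) and in 3 of 15 day 0 members (20.0%, 7.05% to 45.2%; all peaks 5.21%). Since day 5 peaks were wider, the count was repeated in the 200 bp around each midpoint, which gave 20.6% at day 5 (all peaks 18.7%) and 6.04% at day 10 (all peaks 9.29%). Within day 5, the string was in 7 of the 26 members that overlapped a day 10 peak and in 23 of the 42 that did not (26.9% and 54.8%; all peaks 34.3% and 46.8%).

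Some noncoding gene peaks of 5hmC recurred between day 5 and day 10, at shares whose intervals hold those of all peaks. At least 1 bp was shared with a day 10 5hmC peak by 26 of 68 day 5 members (38.2%, interval 27.6% to 50.1%), where 29.6% of all day 5 peaks did so. In the other direction, 30 of 149 day 10 members overlapped a day 5 peak (20.1%, 14.5% to 27.3%; all peaks 17.1%). By accession, 30 of the 61 of day 5 (49.2%) were among the 115 of day 10 (26.1%), where 46.6% and 28.4% of all accessions of these lists were shared. Of these 30, 24 had peaks that overlapped. Without labels placed away from their transcript, 27 of 54 and of 106 were shared.

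The 24 accessions, of which Mir1195 and Mir297c are labels displaced from the microRNA's locus, were those of Pvt1, Mir34a, Rn45s, 2610307P16Rik, 9430076C15Rik, Gm12216, 2310010J17Rik, 4933430H16Rik, 5031425F14Rik, 5730422E09Rik, 6430562O15Rik, A330041J22Rik, A630077J23Rik, C330024C12Rik, D830013O20Rik, D830046C22Rik, Gm15997, Gm4262, Gm5084, Gm5122, Gm6936, Mir101c, Mir1195 and Mir297c. In the other six, the nearest peaks of the days were apart by 12 bp (D330050G23Rik), 71 bp (Gm12159), 1606 bp (Pisd-ps2), 3277 bp (4930524O08Rik), 6979 bp (Mir4660) and 40418 bp (8030442B05Rik).

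As in the lists as a whole, the day 10 peak was a short stretch of the day 5 peak. In 29 of the 30 pairs it lay wholly inside (96.7%; 98.2% of all 710 pairs), with Mir34a the exception, and its midpoint was a median of 114 bp from that of the day 5 peak (107 bp over all pairs). The pairs had a median width of 156 bp for the day 10 peak and of 972 bp for the day 5 peak (all pairs 168 and 892 bp). CpG density was higher in the day 10 peak than in its day 5 peak in 17 of 30 pairs (56.7%, against 68.2% of all pairs). Gm4262 had 4.31 CpG per 100 bp at day 10 and 1.02 at day 5. The pairs of 9430076C15Rik differed in direction, with 5.22 and 1.5 in 1 pair and 1.44 and 1.63 in the other. Gm6936 and 4933430H16Rik had no CpG at all in the day 10 peak, and 0.789 and 1.27 per 100 bp at day 5. Because day 10 peaks were narrower, 0 of these members shared 50% of both peaks (0.534% of all day 5 peaks did).

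**Figure D4:**
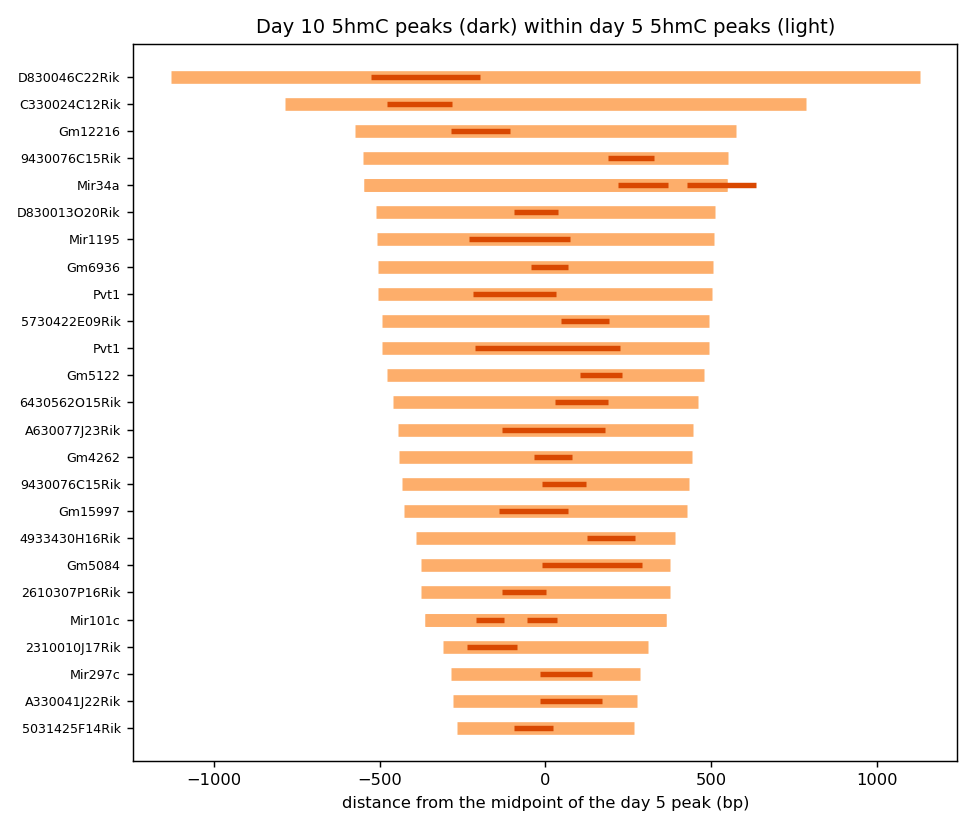
Light bars are day 5 5hmC peaks of noncoding genes centred on their midpoint, and dark bars the day 10 5hmC peaks that overlap them, with distance in bp on the x axis; Rn45s, whose day 5 peak is 6114 bp wide, is left out. The dark bars lie inside the light ones, apart from the Mir34a peak that runs past the end.

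Pvt1, the long noncoding RNA beside Myc on chromosome 15, had the most peaks of the named long noncoding genes. Its 2 day 5 5hmC peaks lay in introns at 29.5 and 99.0 kb from the start. The 4 day 10 peaks lay at 6.29, 29.4, 86.0 and 99.0 kb, also in introns, and those at 29.4 and 99.0 kb were inside the day 5 peaks. The day 10 peaks were 173, 251, 197 and 438 bp wide with 3.47, 3.19, 1.52 and 1.83 CpG per 100 bp. The nearest was 53.8 kb from Myc, and no 5mC peak of either day was within 47.4 kb of Pvt1.

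2610307P16Rik, a cDNA clone gene on chromosome 13 whose neighbour is Sox4, a SOX factor of progenitor cells, had 1 day 5 and 4 day 10 5hmC peaks. The day 10 peaks lay in introns at 98.2, 106, 194 and 197 kb from its start, and the first was inside the day 5 peak, 162 kb from Sox4. A330102I10Rik, on the other side of Sox4, had a day 5 5hmC peak over its first exon, with 1.69 CpG per 100 bp and the AP-1 string, 60.3 kb from Sox4. It was chosen after its values were seen. Gm12216, between Irf1 and Slc22a5 on chromosome 11, had 3 day 5 peaks (at 21.2, 55.8 and 64.3 kb) and 3 day 10 peaks (at 16, 37.8 and 56.0 kb), of which 1 pair overlapped.

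**Figure D5:**
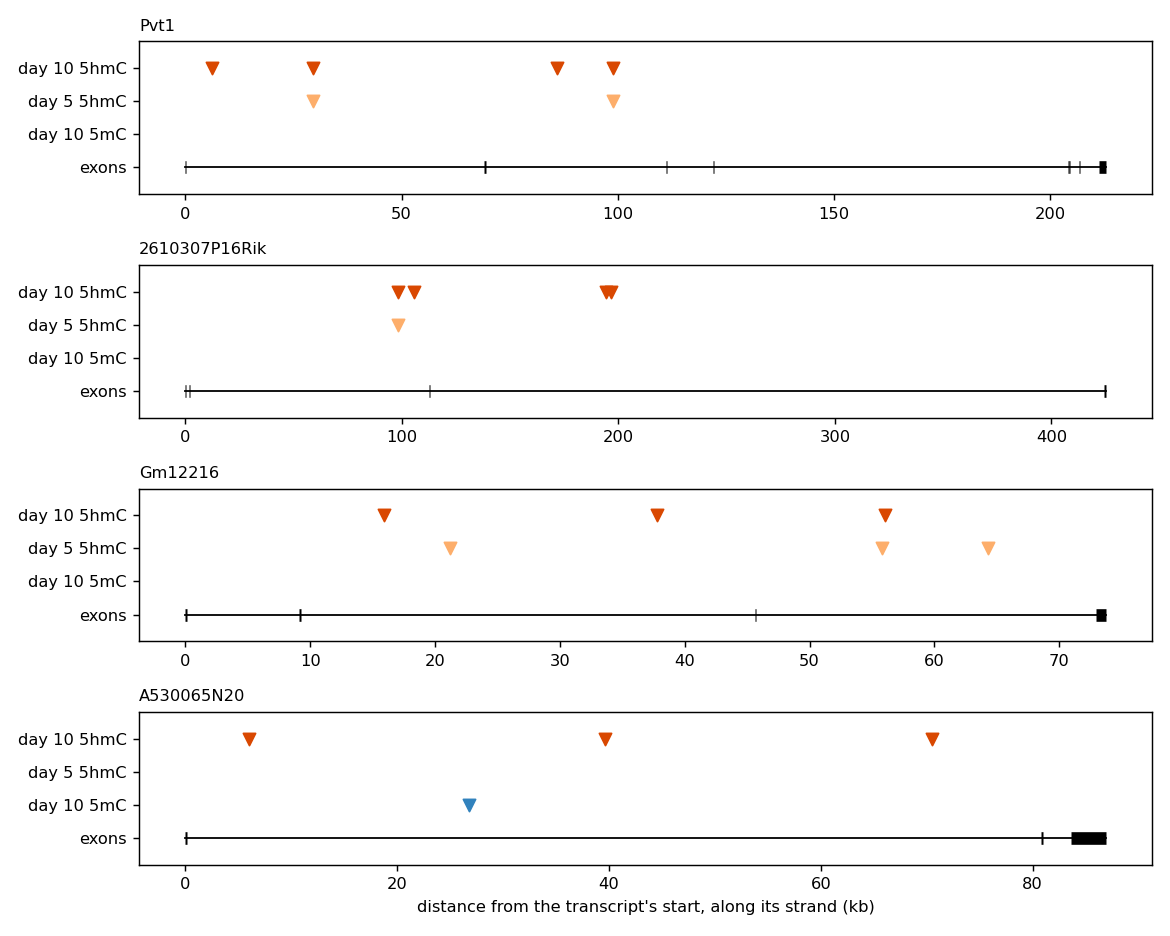
Peaks (triangles, by list) and exons (black boxes on the line) of 4 noncoding genes are drawn by distance in kb from the transcript's start along its strand. In Pvt1 and 2610307P16Rik the day 5 5hmC peaks have a day 10 peak at the same place, in Gm12216 this holds for 1 of 3, and A530065N20 has day 10 peaks of both marks at different places.

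9430076C15Rik named 6 peaks on chromosome 6, all inside Creb5, a CREB-family transcription factor gene, since the accession is not in the release used here. There were 1 in day 10 5mC, 2 in day 5 5hmC and 3 in day 10 5hmC, and 2 of the day 10 5hmC peaks lay inside the day 5 peaks. Its 5mC peak was 9109 bp from the nearest day 5 and 9848 bp from the nearest day 10 5hmC peak.

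5mC and 5hmC rarely met at noncoding genes. Of 67 day 10 5mC members, 2 shared a base with a day 5 5hmC peak (2.99%; 0.958% of all peaks) and 1 with a day 10 5hmC peak (1.49%; 0.833%). Of 68 day 5 5hmC members, 2 shared a base with a day 10 5mC peak (2.94%; 1.17%), and of 149 day 10 5hmC members 3 did (2.01%; 0.696%). All of these were at Rn45s and Gm5577. The counts are too small to set the members apart from their lists. None of the 15 day 0 5mC members overlapped a peak of another list, as for all 326 day 0 peaks (0.0% of the list in each case), and the Wilson upper bound for the members is 20.4%.

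Rn45s had the widest member of both the day 10 5mC and the day 5 5hmC list, 6420 and 6114 bp, at almost the same place (chr17:39842709-39849128 and chr17:39842853-39848966). They held 602 and 599 CpGs, or 9.38 and 9.80 per 100 bp. Its 3 day 10 5hmC peaks, of 351, 79 and 830 bp, lay inside both. Ribosomal RNA genes are present in many copies in the genome, and the part of copy number in these peaks was not tested. At Gm5577, a predicted gene near H1f10 on chromosome 6, the day 5 5hmC peak (933 bp) and the day 10 5mC peak (1262 bp) shared 127 bp at their ends, which hold a single CpG.

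Other genes carried both marks apart from each other. Day 10 5mC and day 10 5hmC shared 10 accessions, or 15.4% of the 65 and 8.70% of the 115 (23.5% and 18% of all accessions), and without Rn45s the nearest peaks of the marks were 1771 to 77004 bp apart. They were Mir1957 (1771 bp), 1700060C16Rik (3951 bp), 2210408F21Rik (8014 bp), 9430076C15Rik (9848 bp), Gm10636 (11145 bp), A530065N20 (12200 bp), 1500017E21Rik (32354 bp), Mir1195 (47170 bp) and Mir466n (77004 bp), and Mir1195 and Mir466n are displaced labels. 1700060C16Rik is a neighbour of Sox5, a partner of SOX9 in cartilage, and its 2 day 10 5mC peaks and 1 day 10 5hmC peak lay in introns 220, 225 and 229 kb from Sox5. A530065N20 had 3 day 10 5hmC peaks in introns at 6.05, 39.6 and 70.5 kb and a 5mC peak at 26.7 kb. Day 5 5hmC and day 10 5mC shared 6 accessions, 9.84% of the 61 and 9.23% of the 65 (18.2% and 14.4% of all accessions). Of these, Gm5577, 4930429D17Rik and A930011G23Rik were absent from day 10 5hmC, and the last pair had peaks 34790 and 63468 bp apart.

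Day 0 5mC and day 10 5hmC shared 6 accessions, 40.0% of the 15 and 5.22% of the 115 (22.8% and 1.58% of all accessions). By symbol they shared 7 genes, since 1600002D24Rik was in both under different accessions, with peaks 55333 bp apart. Day 0 5mC shared 0 with day 10 5mC and 0 with day 5 5hmC, where 14.6% and 13.8% of all day 0 accessions were shared (1.32% of those of day 10 5mC and 1.57% of those of day 5 5hmC). The 6 were 9530052E02Rik, 0610009L18Rik, 4921509O07Rik, Gm13845, Mir1191 (a displaced label) and Gm20125, with 9341, 9476, 10452, 11122, 45741 and 57061 bp between the nearest peaks. 9530052E02Rik lies beside Irs2, an adaptor of the insulin receptor. Its day 10 5hmC peak was 0.982 kb from Irs2 and had 5.76 CpG per 100 bp, and its day 0 5mC peak was 10.5 kb away with 0.278. 4921509O07Rik had the widest day 0 member, 1186 bp, of which 99.3% was repeat, and 4930584F24Rik the narrowest, 543 bp with 93.0% repeat.

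Peg13, the paternally expressed RNA inside Trappc9 on chromosome 15, had a day 10 5mC peak of 1359 bp over its start, with 71 CpGs (5.22 per 100 bp) and 1.55% repeat. The remaining genes of this paragraph, apart from Gm1943, were chosen after their values were seen. Among day 10 5mC members, the highest density after Rn45s was in Gm5607 (Sox1ot in newer names), 5.66 per 100 bp in an exon, 31253 bp from Sox1. Further members were Dlx6as2 inside Dlx6 (3.48 CpG per 100 bp), LOC433944 at 2757 bp from Tbx3 (3.89), A730090H04Rik at 3169 bp from Dlx4 (3.10), 9130206I24Rik at 3335 bp from Foxd2 (3.06), Foxl2os at 3378 bp from Foxl2 (2.14) and Otx2os1 at 83633 bp from Otx2 (1.61). Dlx6, Dlx4 and Otx2 encode homeodomain factors, Tbx3 a T-box factor, and Foxd2 and Foxl2 forkhead factors. How often members of this list have such a neighbour was not tested. 2610035D17Rik, a noncoding gene on the side of chromosome 11 where Sox9 lies, had an intronic 5mC peak of 1329 bp with 2.26 CpG per 100 bp, 319 kb from Sox9. The narrowest day 10 5mC member was at Gm1943, 492 bp with 3.05 CpG per 100 bp.

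Among imprinted and well-known noncoding genes, 11 of a list of 49 had a member, and the share among other noncoding genes was not counted. Beside Peg13, Airn, the antisense RNA that silences Igf2r in cis, had a day 10 5hmC peak of 156 bp in an intron 53.2 kb from its start (3.85 CpG per 100 bp), 24.7 kb from Igf2r. Tug1 had the narrowest member of all, a day 10 5hmC peak of 73 bp whose midpoint lay 15 bp from its transcript's start. As printed above, it is largely a run of adenines, with 90.4% repeat and no CpG. Pinc, a pregnancy-induced RNA, had 2 day 10 5hmC peaks of 173 and 131 bp. Rmst, a neuronal regulator, had a day 5 5hmC peak of 753 bp in an intron with the AP-1 string. Snhg5, a host of small nucleolar RNAs, had the narrowest day 5 member, 417 bp, upstream by 5254 bp. Pisd-ps2, a pseudogene, had 1 peak at each 5hmC day, and Miat a day 0 5mC peak 3735 bp upstream. Bc1 and Rn45s complete the 11 with Pvt1, but the day 0 5mC peak labelled Bc1 lay on another chromosome than the Bc1 gene.

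The other 38 had no member. They were Kcnq1ot1, H19, Meg3, Rian, Mirg, Nespas, Xist, Tsix, Jpx, Ftx, Malat1, Neat1, Gas5, Snhg1, Snhg3, Snhg11, Snhg14, Dancr, Hotair, Hottip, Hoxa11os, Dlx6os1, Dnm3os, Sox2ot, Dleu2, Pisd-ps1, Rmrp, Rpph1, Rn7sk, Mir140, Mir455, Mir199a-2, Mir214, Mir145a, Mir143, Mir21a, Mir22 and Mir29a. RefSeq placed 37 of them, and 2 of these had a peak of another label within 5000 bp: a day 10 5mC peak inside Snhg14, and a day 10 5mC peak inside Dlx6os1 with a day 10 5hmC peak 2.10 kb from it. Mir140, the cartilage microRNA in Wwp2, had its nearest 5hmC peaks 229 kb (day 5) and 155 kb (day 10) away. Mir455, the cartilage microRNA in Col27a1, had a day 10 5hmC peak 6.39 kb away and a day 10 5mC peak 17 kb away. Meg3 and Mirg, in the cluster that also holds Mir487b, had day 10 5mC peaks 12.7 and 7.49 kb away. Absence from these lists says only that no peak passed the authors' threshold.

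Further day 10 5hmC members were chosen after their values were seen. Gm13752 had a peak 24.2 kb from Frzb, a secreted WNT antagonist of cartilage, with 3.10 CpG per 100 bp. Gm14005 (Morrbid in newer names), a long noncoding RNA, had peaks of 236 and 147 bp with 3.39 and 0.680 CpG per 100 bp, the first 162028 bp from Bcl2l11. 1810026B05Rik (now Chaserr), the neighbour of Chd2, had a peak of 136 bp upstream, and 2610203C20Rik (now Mir100hg), a microRNA host gene, had 1 of 118 bp upstream. Rnu11, the U11 RNA of the minor spliceosome, had a peak of 127 bp upstream by 893 bp, 54.3% of it repeat. Gas1 was the nearest protein-coding gene of the Gm5084 and A530065N20 peaks. The Gm5084 peak, 29439 bp from Gas1, was inside its day 5 peak.

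Some members lay in the body of a protein-coding gene: 1 of 15 at day 0 (6.67%), 19 of 67 in day 10 5mC (28.4%), 10 of 68 in day 5 5hmC (14.7%) and 24 of 149 in day 10 5hmC (16.1%). The share over all peaks of each list was not counted, so these shares do not set the members apart from their lists. These counts include noncoding transcripts of protein-coding genes, such as those of Polg2 and Ankrd10, whose peaks lay in their own gene. For the others, the label of the noncoding gene does not say which of the overlapping genes the mark belongs to. The strand column of the files gives no other sign than plus, so it does not help.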

How the data were processed

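Genomic DNA of ATDC5 cells was enriched for 5mC with a methyl-CpG binding protein complex or for 5hmC after glucosyltransferase tagging, and sequenced. The authors trimmed the reads with cutadapt, aligned them with BWA to GRCm38/mm10, called peaks with MACS 1.4.2 and annotated them with HOMER. The deposited lists hold peak boundaries in bp and the annotation. Per the file headers, the regions had a fold enrichment of 3 for 5mC and 10 for 5hmC, without scores or counts, and the control is not named. The study's methods describe a search for gain or loss between progenitors and chondrocytes, so the lists may hold differences, and a control, depth or threshold of another kind would change them. The input sample was not analysed here. The numbers of empty rows dropped from the 5hmC lists were 27818 and 25449.

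Peaks were placed on RefSeq transcripts, and on the sequence, of GRCm38.p6 with Python 3.11.15, pandas 2.3.3 and samtools 1.23.1. A peak within 10000 bp was taken as at its transcript. Overlap meant at least 1 bp. Shares of peaks with an accession were compared between lists by Fisher's exact test, two-sided (scipy 1.17.1), with Benjamini-Hochberg adjustment over 3 pairs. CpG, lower-case repeat bases and TGACTCA were counted per peak. The scripts were tested on simulated data. The members and lists were chosen with earlier results of these data known. Genes were named when in 2 or more lists, with 3 or more peaks in a list, widest or narrowest of a list, microRNA, small or ribosomal RNA genes, in a list of 49 known genes, or overlapping another list; others are marked as chosen after their values were seen. Alternatives were another denominator, genes as the unit, merged peaks within 1000 bp, peaks without Rn45s or mitochondrial ones, membership by gene type, other distances, overlaps and windows, and members at their transcript.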

Additional observations from a re-analysis of the deposited data

How the results depend on the processing

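Of 88 alternative values, 72 counted as the same. A difference in share did so when it stayed on the same side of the threshold. Another share or a median did so within the interval of the reported value, and a number of peaks within a fixed factor of the reported number, a looser rule. No difference changed sign, which was judged for the differences alone. The alternative of members at their transcript was added after seeing the data. With every peak in the denominator, the shares moved to 4.60%, 2.79%, 3.30% and 3.58% in day 0 5mC, day 10 5mC, day 5 5hmC and day 10 5hmC, and the differences to -1.81 (5mC days) and 0.788 percentage points (marks at day 10), which no longer passed. With genes as the unit the difference between marks was 1.72 points and did not pass. With members at their transcript alone, the day 10 5hmC share was 5.16%. Within 2000 bp of the start lay 21.8%, 23.2% and 23.3% of members in day 10 5mC, day 5 5hmC and day 10 5hmC. In the central 200 bp, TGACTCA was in 0.0% of day 0 members, 1.49% of day 10 5mC and 20.6% of day 5 5hmC members. At 50% of both peaks the overlap of the 5hmC lists was 0.0% in either direction.

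No paired analysis was possible because each 5hmC list is of both numbered samples of its day together, and for the same reason no sample could be left out. The depth is unknown, no per-peak score was used here, and 15 members at day 0 leave wide intervals. Labels are the authors', and 55 of 299 could not be placed at their transcript. Classes were read from symbols. The days are those of the labels.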
